A study of Ambystoma mexicanum with 20 samples.

Results

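Transcripts of the cell cycle and of DNA replication were followed in regenerating axolotl limbs, in the epidermis, which after amputation is the wound epidermis, and in the soft tissue beneath it (ST). The transcripts were chosen by name. They are the rows of the transcript table that the study's own lists of changed transcripts pair with a symbol beginning with MCM, CDC, CDK, CCNA, CCNB, CCND, CCNE, KIF, CENP, BUB, AURK, PLK, POLA, POLD, POLE, RFC, RRM or ORC, or with PCNA, NASP, TOP2A or MKI67. This gave 66 transcripts of 50 genes, out of 180605 transcripts in the table. No CCNB, CCND, CCNE, BUB or MKI67 transcript carried a symbol in the copies of the lists used here. In both tissues, the summed levels of replication and of mitosis transcripts were lowest at amputation and higher at 3 and 8 days post-amputation (dpa). The lists that gave the symbols were made from comparisons between these days. In DMSO samples, PCNA and the summed RRM2 transcripts were highest at 3 dpa in both tissues. The sum of origin and licensing transcripts overlapped between 3 and 8 dpa in ST. The sum of mitosis transcripts, with TOP2A among them, was highest in ST at 8 dpa. MS-275 is a histone deacetylase inhibitor. In ST at 3 dpa, 42 of 47 transcripts with a known cell cycle role were lower on average with MS-275 than in DMSO controls. The CDK inhibitor CDKN1B was among the 42. Few single transcripts passed the test, and some of these DMSO samples had also helped to choose the transcripts.

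Cells that enter the cycle license replication origins with the ORC and MCM proteins, copy DNA in S phase with polymerases held on the template by the PCNA clamp, and then divide under the control of CDK1 and the mitotic kinases. NASP carries new histones to the replicating DNA, RRM2 is a subunit of the enzyme that makes deoxynucleotides, and TOP2A untangles chromosomes before they separate. In a regenerating limb, a wound epidermis first covers the stump, and cells of the stump then divide to form the blastema from which the new limb grows.

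The samples came from juvenile axolotls (Ambystoma mexicanum) whose upper forelimbs were amputated. Each tissue had 5 groups of 2 biological replicates, 20 samples in all: DMSO at 0 dpa, and DMSO or MS-275 at 3 dpa and at 8 dpa. MS-275 was injected at 25 mM under the wound epidermis every other day after amputation, and DMSO is the vehicle that the control groups received per their labels. The samples of 0 dpa, labelled DMSO, were taken right after amputation, and whether they were injected is not clear. A replicate is a pool of both forelimbs of 2 animals, so the spread between replicates is smaller than that between single animals. The epidermis and the underlying ST were separated from the same piece of limb, and the labels do not tie an epidermis sample to an ST sample, so comparisons between tissues treat samples as independent that may share animals.

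All values below are scaled TPM. TPM is a length-corrected share of a sample's transcripts, computed by the authors, and it was divided here by 1 factor per sample that sets the typical transcript equal between samples. The factors ran from 0.502 to 1.57, lowest in ST at 0 dpa and highest in ST at 8 dpa with DMSO. TPM keep no read counts, so the depth behind each value was not analysed here. The keratinocyte and muscle markers matched the labelled tissues: 6 keratinocyte markers summed to between 637 and 1950 scaled TPM in the epidermis and between 14.8 and 501 in ST, while 7 skeletal muscle markers summed to between 993 and 50900 in ST and at most 175 in the epidermis. The 6 connective tissue markers overlapped between the tissues (956 to 4008 in the epidermis and 1695 to 5662 in ST), and at 0 dpa epidermis replicate 2 was above both ST samples. In bulk tissue, fewer cells of a type and less RNA per cell cannot be told apart. All 66 transcripts passed the filter on low values in both tissues, and differences were tested with limma over all transcripts of a tissue, with p-values adjusted by Benjamini-Hochberg. A transcript with an adjusted p under 0.05 is called changed.

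The symbols came from lists that compare DMSO samples between days, so those comparisons helped to choose the transcripts. Only the ST lists gave a symbol to 21 transcripts, only the epidermis lists to 26, and both to 19. Changes over time in DMSO samples are therefore given as a description. The label also reaches beyond the cell cycle. Of the 66 transcripts, 19 from 17 genes match by name but are known for other roles, such as CDC42EP2 and CDC42SE1, which bind the small GTPase CDC42, and AURKAIP1, a protein of the mitochondrial ribosome. The other 47 transcripts are called core transcripts here. Of 10 genes with more than 1 transcript, the transcripts are lettered in the order of their identifiers. RSEM, the program that made the values, divides reads between similar transcripts of a gene, so the level of 1 lettered transcript is less certain than their sum.

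**Figure D1:**
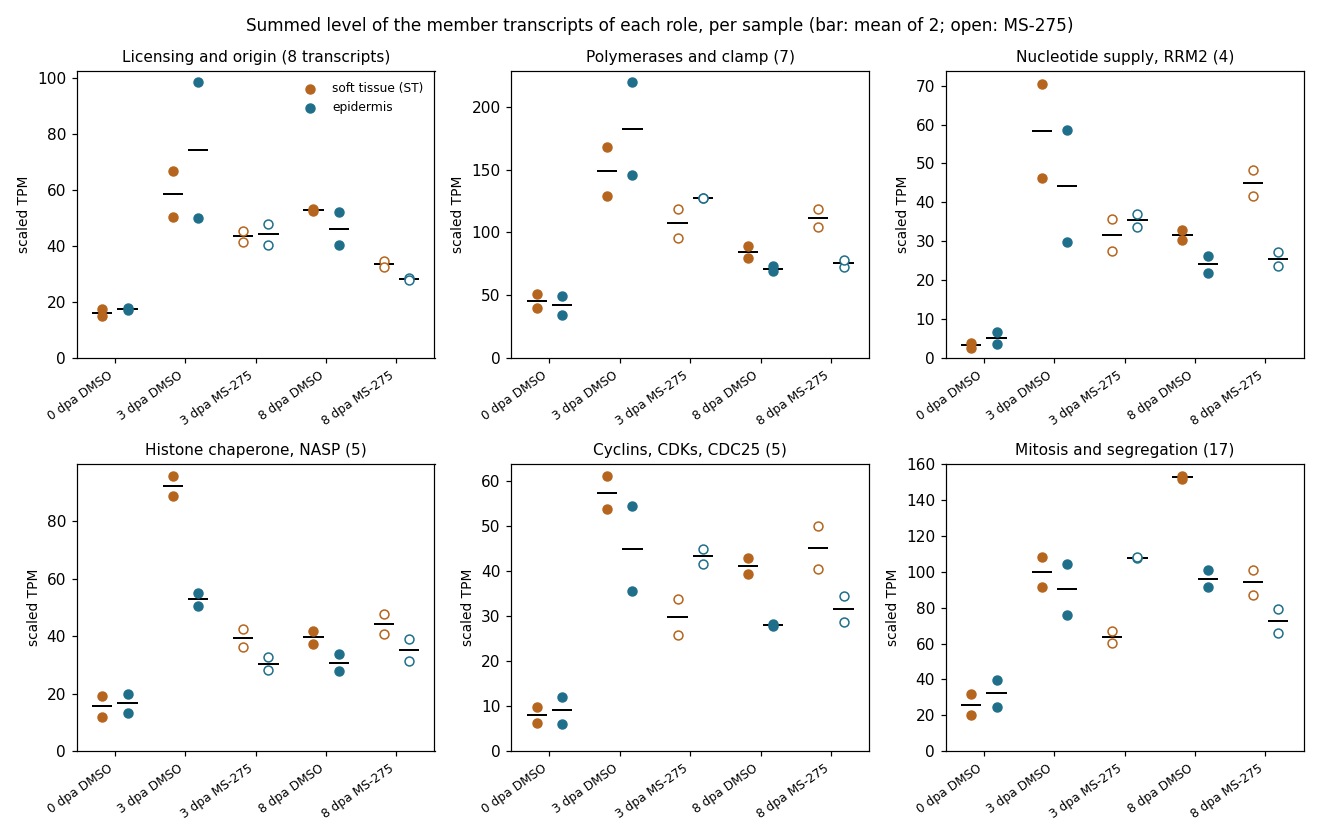
Summed scaled TPM (y axis) of the transcripts of each role in every sample, by day and treatment (x axis), for ST (brown) and epidermis (blue); filled points are DMSO, open points MS-275, and bars the mean of 2 samples. Each of the 6 plotted sums is lowest at 0 dpa, the mitosis sum peaks in ST at 8 dpa with DMSO (152 and 153), and the NASP sum peaks in ST at 3 dpa with DMSO (88.8 and 95.7).

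In DMSO samples the replication machinery was higher after amputation. Origin and licensing transcripts (ORC1, ORC6, MCM4, MCM5, MCM7 and the MCM-binding protein MCMBP, 8 transcripts) summed to 14.9 and 17.6 scaled TPM in ST at 0 dpa, to 66.9 and 50.3 at 3 dpa and to 52.7 and 53.2 at 8 dpa. In the epidermis the sums were 17.1 and 17.9, then 50.1 and 98.6, then 40.4 and 52.2. MCM7 b, a subunit of the helicase that opens the DNA, was measured at 5.27 and 4.50 in ST at 0 dpa, 26.9 and 22.0 at 3 dpa, and 22.9 and 22.9 at 8 dpa. MCM5, another helicase subunit, went from 5.01 and 7.93 to 16.8 and 11.7 and then 11.7 and 11.8 in ST. ORC6, a subunit of the origin recognition complex, went from 0.78 and 0.80 to 5.03 and 4.32 and back to 2.43 and 2.17. In these 3 transcripts the ST samples of 3 and 8 dpa lay above both samples of 0 dpa. MCM4 b had 1.77 and 1.75 scaled TPM in ST at 0 dpa, 6.55 and 5.67 at 3 dpa and 7.13 and 7.72 at 8 dpa. The 2 epidermis samples of 3 dpa differed for these genes: MCM7 b was 18.3 in replicate 1 and 41.9 in replicate 2, and MCM4 b was 6.16 and 13.6.

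PCNA was the most abundant of the 66 transcripts. Its level in ST with DMSO was 39.0 and 25.6 scaled TPM at 0 dpa, 125 and 88.9 at 3 dpa, and 51.7 and 46.9 at 8 dpa. In the epidermis it was 34.7 and 22.4, then 108 and 165, then 43.5 and 47.6. Among DMSO samples, those of 3 dpa were above those of both other days in each tissue. RFC2, a subunit of the loader that places PCNA on DNA, was measured as RFC2 b at 6.23 and 7.17 in ST at 0 dpa, 15.8 and 18.4 at 3 dpa and 18.1 and 15.7 at 8 dpa. POLA2, a subunit of the polymerase that starts each new strand, was 1.07 and 0.90, then 4.62 and 4.37, then 3.88 and 3.51. POLE2 b, a subunit of the leading strand polymerase, was 2.48 and 1.14, then 3.46 and 4.04, then 3.49 and 3.56. With DMSO, both later days were above 0 dpa for all 3, and days 3 and 8 overlapped for RFC2 b and POLE2 b.

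RRM2 had the steepest profile of the roles. With DMSO, its 4 transcripts summed to 3.9 and 2.6 scaled TPM in ST at 0 dpa, 70.4 and 46.3 at 3 dpa and 32.9 and 30.2 at 8 dpa, and to 6.6 and 3.6, 29.8 and 58.6, and 21.9 and 26.3 in the epidermis. All 4 moved alike. The most abundant, RRM2 c (AMEXTC_0340000202468), was 1.80 and 1.18 in ST at 0 dpa and 27.6 and 22.7 at 3 dpa, a log2 difference of 4.01 (SE 0.26). RRM2 d was 1.33 and 1.0 and then 29.8 and 17.1. RRM2 a and RRM2 b were lower, at 0.29 and 0.18 and at 0.50 and 0.26 in ST at 0 dpa, and at 4.63 and 2.12 and at 8.46 and 4.35 at 3 dpa.

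With DMSO, CDK1, the kinase that drives entry into mitosis, was 3.73 and 2.29 scaled TPM in ST at 0 dpa, 26.9 and 30.7 at 3 dpa and 19.2 and 16.6 at 8 dpa. In the epidermis it was 5.12 and 1.70, then 20 and 25.0, then 13 and 12.1. CDC25A, the phosphatase that activates CDKs, was 1.66 and 1.65, 10.6 and 10.3, and 6.05 and 6.33 in ST. CDK2, the S phase kinase, was 2.58 and 1.67, 8.44 and 8.30, and 6.83 and 6.69, and its partner cyclin CCNA2 was 1.48 and 0.38, 4.17 and 6.63, and 6.26 and 5.08. CDK1, CDC25A and CDK2 were higher at 3 than at 8 dpa in every DMSO sample of ST, whereas CCNA2 overlapped between these days. CDKN1B, which inhibits CDKs, ran the other way. It was 5.12 and 3.80 in ST at 0 dpa, 2.40 and 1.84 at 3 dpa and 1.05 and 1.16 at 8 dpa, and in the epidermis 2.49 and 4.31, 1.26 and 1.16, and 0.53 and 0.44.

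With DMSO, mitosis and segregation transcripts (17 from 14 genes) summed to 31.7 and 20 scaled TPM in ST at 0 dpa, 91.4 and 108 at 3 dpa and 152 and 153 at 8 dpa. AURKB b, a kinase of the chromosomal passenger complex, was 3.51 and 2.37, then 13.1 and 14.4, then 16.3 and 15.4. CDC20, which activates the ligase that triggers chromosome separation, was 3.84 and 3.49, 7.93 and 10.8, and 16.4 and 16.0. CDCA8, another passenger protein, was 4.86 and 2.55, 10.8 and 10.3, and 8.94 and 10.7, and KIF11, the motor that keeps the spindle poles apart, was 2.43 and 1.10, 9.46 and 10.6, and 11.2 and 11.5. In these DMSO samples AURKB b, CDC20 and KIF11 were highest at 8 dpa, and CDCA8 overlapped between 3 and 8 dpa. TOP2A was measured as 3 transcripts. TOP2A c (AMEXTC_0340000213181) was 4.03 and 1.22 in ST at 0 dpa, 9.22 and 11.7 at 3 dpa and 31.7 and 33.0 at 8 dpa. TOP2A b (AMEXTC_0340000058446) was 2.35 and 0.96, 7.86 and 7.01, and 16.2 and 17.1. TOP2A a (AMEXTC_0340000053663) stayed at or under 0.79 in every sample. In the epidermis with DMSO, TOP2A c was 6.32 and 3.58 at 0 dpa, 4.29 and 9.40 at 3 dpa and 16.0 and 18.9 at 8 dpa, so that days 0 and 3 overlapped and day 8 stood above both.

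**Figure D2:**
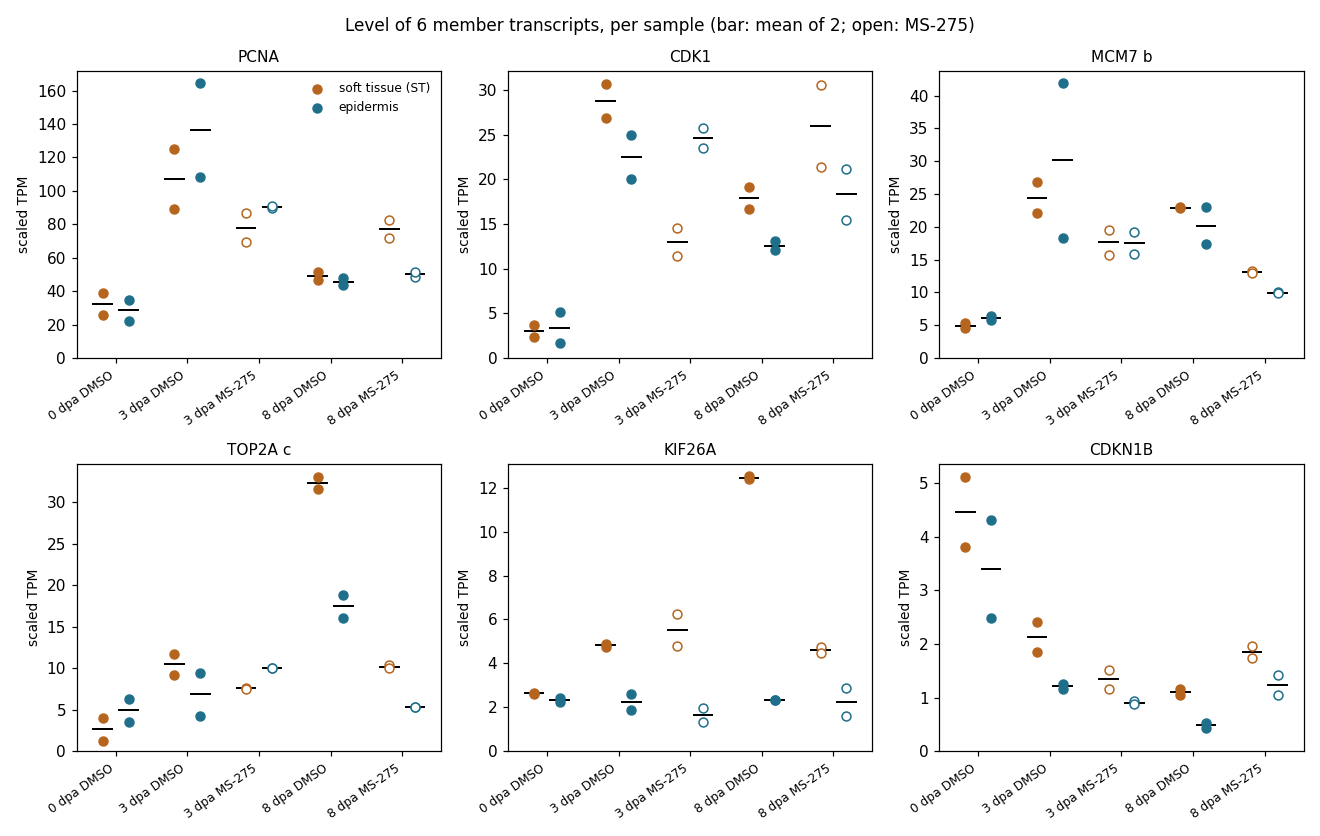
Scaled TPM (y axis) of 6 transcripts in every sample by day and treatment (x axis), for ST (brown) and epidermis (blue); filled points are DMSO, open points MS-275, and bars the mean of 2 samples. PCNA peaks at 3 dpa with DMSO in both tissues and CDK1 in ST, TOP2A c peaks at 8 dpa with DMSO (31.7 and 33.0 in ST), KIF26A stands out only in ST at 8 dpa with DMSO (12.4 and 12.5), and CDKN1B is highest at 0 dpa.

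Counted over all 66 transcripts, 37 were called higher and 7 lower in ST at 3 dpa than at 0 dpa, where 5.27% and 5.98% of all tested transcripts were. At 8 dpa against 0 dpa, 36 were called higher and 8 lower in ST (6.21% and 6.57% of all). In the epidermis, 32 were higher and none lower at 3 dpa (1.63% and 0.735% of all), and 20 higher and 3 lower at 8 dpa (2.08% and 1.39%). Since the lists behind the symbols were made from these comparisons, these counts restate the choice. Among those lower in ST on both days were PLK2 a, PLK2 b, CDK17, CDC42EP2 b, CDC42EP3 and NASP b. Markers of other cell types moved with the days too. All 7 leukocyte markers (sum 43.0 to 63.9 in ST at 0 dpa, 346 to 355 at 3 dpa, 292 to 296 at 8 dpa) were higher in both later ST groups, and 6 and 7 of 7 muscle markers were lower (sum 20700 to 50900 at 0 dpa, 4490 to 14400 at 3 dpa, 993 to 1220 at 8 dpa). In the epidermis, all 7 leukocyte markers were also higher on both later days (71.9 to 75.8, then 133 to 144, then 276 to 303). In ST, 5 of 6 keratinocyte markers were lower at 3 dpa (14.8 to 15.1 against 40.6 to 68.3), and 5 of 6 connective tissue markers were higher at 8 dpa (5460 to 5660 against 1700 to 2660). The red blood cell marker HBA was lower at 8 than at 0 dpa in ST (108 to 1410 against 2670 to 38400) and in the epidermis (166 to 331 against 8140 to 11300). No marker was at 0 in these ST groups except KRT5, a keratinocyte marker, at 3 dpa. The part of cell makeup in the time course was not tested.

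Some transcripts had their symbol only from the other tissue's lists. They are the ones that the tissue's own lists, as used here, left out, and both tissues came from the same pieces of limb, so they too are no independent sample. Of 26 such transcripts in ST, 7 rose at 3 dpa and none fell (5.27% and 5.98% of all did): CCNA2, CDCA8, CENPL, MCM5, POLE2 a, RFC2 a and RFC2 b. RFC2 a had the largest change, with 0.82 and 2.53 scaled TPM at 0 dpa and 14.1 and 8.34 at 3 dpa (log2 difference 2.81, SE 0.51, limma adjusted p = 0.0128). At 8 dpa, 6 of the 26 rose and 2 fell in ST (6.21% and 6.57% of all). CCNA2 rose by 2.72 (SE 0.54, limma adjusted p = 0.0154), and the 2 that fell were CDKN1B, which dropped by 1.90 (SE 0.28, limma adjusted p = 0.00440), and AURKAIP1. Of 21 such transcripts in the epidermis, none was called at 3 dpa by limma, with 8 at an unadjusted p under 0.05 (17.9% of all transcripts), and 2 rose at 8 dpa (2.08% of all), KIF20A (log2 difference 1.98, SE 0.42, limma adjusted p = 0.0481) and TOP2A c (1.85, SE 0.38, limma adjusted p = 0.0412). In these subsets the median log2 difference was 0.97 at 3 dpa and 0.77 at 8 dpa in ST, and 0.84 on both days in the epidermis, where the median over all transcripts was within 0.1 of 0. The counts rest on single libraries. In ST the 7 calls of 3 dpa became 2 without ST 3 dpa DMSO replicate 1, and 4 without ST 3 dpa DMSO replicate 2 or either ST 8 dpa DMSO replicate, and the 8 calls of 8 dpa became 2 and 3 without ST 8 dpa DMSO replicate 1 and 2. In the epidermis the 0 calls of 3 dpa became 2 without epidermis 0 dpa DMSO replicate 1, 3 without epidermis 3 dpa DMSO replicate 1 and 1 without epidermis 3 dpa DMSO replicate 2. The 2 calls of 8 dpa in the epidermis became 4 without either epidermis 3 dpa DMSO replicate, and 0 without epidermis 0 dpa DMSO replicate 2, either epidermis 8 dpa DMSO replicate or any 1 of the 4 MS-275 libraries.

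Between 3 and 8 dpa with DMSO the roles differed in their order, again as a description. In ST, 12 of 17 mitosis transcripts had both samples of 8 dpa above both of 3 dpa (26.2% of all tested transcripts did), and 2 had them below. All 4 RRM2 transcripts, 3 of 7 polymerase and clamp transcripts and 3 of 5 cyclin and CDK transcripts had both below (21.7% of all). In the epidermis, 6 of 7 polymerase and clamp transcripts were below at 8 dpa (21.4% of all), and the mitosis transcripts were split, with 6 above (23.0% of all) and 4 below. Called changes were few: 2 of 66 in ST (0.225% of all), NASP d and KIF26A, both higher, and 4 of 66 in the epidermis (1.44% of all), where PCNA (log2 difference −1.55, SE 0.26), CENPH and CDC37L1 were lower and TOP2A a was higher. As deposited, without the factors, the median of all transcripts shifted by 0.47 in ST and 0.53 in the epidermis between these days, and the core transcripts with a positive difference went from 22 to 30 of 47 in ST and from 15 to 28 of 47 in the epidermis. Beside these values, all 6 keratinocyte (102 against 14.8 to 15.1) and all 6 connective tissue markers (5460 to 5660 against 2080 to 2880) were higher at 8 dpa in ST, and all 7 muscle, 5 of 7 leukocyte markers and HBA were lower. In the epidermis all 7 leukocyte markers were higher (276 to 303 against 133 to 144), as were 4 of 6 keratinocyte markers. Lower there were all 7 muscle markers, HBA and the keratinocyte marker KRT5 (9.35 and 6.99 against 125 and 79.6). Their part in the order of the roles was not tested.

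The comparison of both days with MS-275 shares no sample with the DMSO lists that gave the symbols, and the study's own lists of MS-275 samples were not used here. None of the 66 transcripts was called between 8 and 3 dpa with MS-275 in either tissue by limma (0.00571% of all transcripts were in ST and 0.0363% in the epidermis), with 12 in ST and 17 in the epidermis at an unadjusted p under 0.05 (11.3% and 13% of all). In ST, 23 of 47 core transcripts had both samples of 8 dpa above both of 3 dpa (20.9% of all) and 8 below (23.5%), with a median log2 difference of 0.34. In the epidermis, 5 were above (22.2%) and 32 below (24.0%), with a median of −0.47. PCNA under MS-275 went from 89.4 and 91.1 scaled TPM at 3 dpa to 48.7 and 51.3 at 8 dpa in the epidermis, and from 86.5 and 69.4 to 71.6 and 82.6 in ST, where the days overlapped. TOP2A c in ST was 7.65 and 7.53 at 3 dpa and 10.4 and 9.98 at 8 dpa with MS-275. With DMSO the same transcript was 9.22 and 11.7 at 3 dpa and 31.7 and 33.0 at 8 dpa. By role, 12 of 17 mitosis transcripts in ST were above at 8 dpa and 5 of 8 licensing transcripts below, and in the epidermis 11 of 17 mitosis, 6 of 7 polymerase and clamp and 6 of 8 licensing transcripts were below. Between the same samples in ST, all 6 keratinocyte markers were lower at 8 dpa (33.8 to 33.9 against 162 to 501), and 6 of 7 leukocyte (393 to 411 against 244 to 329) and 6 of 7 muscle markers (4140 to 5220 against 2320 to 2720) were higher. The other muscle marker, MYH4, was lower. In the epidermis HBA was higher (12300 to 13300 against 3490 to 3730), 3 of 7 leukocyte and 2 of 7 muscle markers were higher and 4 of 6 keratinocyte markers lower. Their part was not tested.

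**Figure D3:**
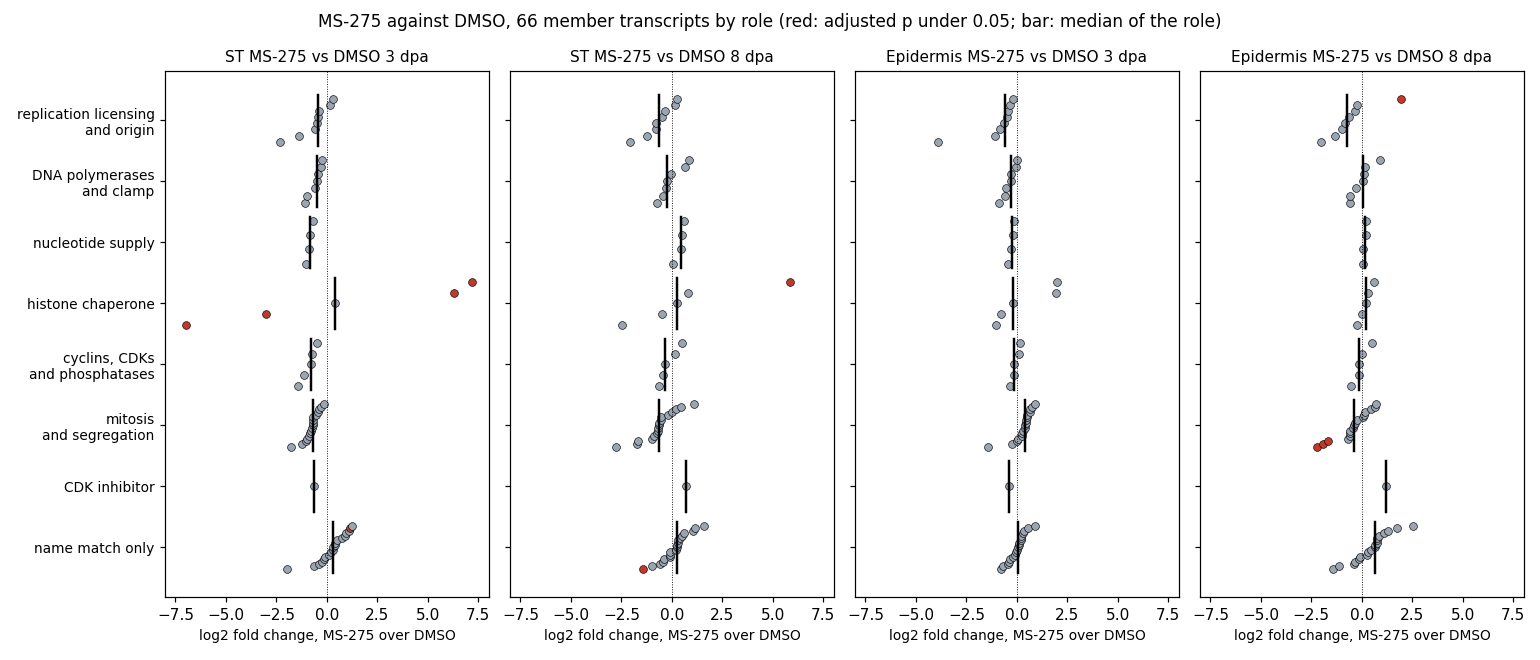
Log2 fold change of MS-275 over DMSO (x axis) for each of the 66 transcripts, by role (y axis), in ST and epidermis at 3 and 8 dpa; red points had an adjusted p under 0.05, bars are the median of the role, and the points of NASP a, b and d and TOP2A a, listed at 0 in some groups, depend on the 0.1 added before the log. In ST at 3 dpa every role but the NASP transcripts and the name matches has its median below 0, and in the epidermis at 8 dpa the 3 called mitosis transcripts are TOP2A a, b and c.

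In ST at 3 dpa, most replication and mitosis transcripts had a lower mean level with MS-275 than with DMSO. Of 47 core transcripts, 42 had a lower mean log2 level with MS-275 and 5 a higher one, with a median log2 difference of −0.68, where the median of all transcripts was 0.07. Both MS-275 samples were below both DMSO samples in 35 of the 47 (20.9% of all tested transcripts), and above in 5 (27.7% of all). All 17 mitosis, all 7 polymerase and clamp, all 4 RRM2 and all 5 cyclin and CDK transcripts had a negative difference. CDKN1B, the CDK inhibitor among the 47, was lower too, at 1.52 and 1.15 with MS-275 against 2.40 and 1.84 with DMSO. Leaving out any 1 ST library left between 39 and 42 of the 47 negative, and the count was 42 as deposited and with factors within the tissue. Some of these DMSO samples had helped to choose the transcripts. Both MS-275 samples were below in all 7 mitosis transcripts with a symbol from lists that used them, against 5 of the other 10. For polymerase and clamp transcripts it was 3 of 3 against 3 of 4, and for licensing transcripts 3 of 4 against 2 of 4. Among the 21 core transcripts whose symbol came without the ST samples of 3 dpa, 19 were negative, with a median of −0.76. Most of the 21 had a symbol from lists that used the epidermis DMSO samples of 3 dpa. Both tissues came from the same pieces of limb, so this subset is no independent sample. CDK1 was 14.5 and 11.4 scaled TPM with MS-275 against 26.9 and 30.7 with DMSO (log2 difference −1.15, SE 0.28, limma adjusted p = 0.0744). Its difference ran from −1.32 to −0.98 when any 1 ST library was left out. PCNA was 86.5 and 69.4 against 125 and 88.9 (−0.44, SE 0.27, limma adjusted p = 0.415). The CDK1 groups were far apart, and those of PCNA were separated by little. RRM2 d was 12 and 9.66 against 29.8 and 17.1 (−1.06, SE 0.29, limma adjusted p = 0.102), and PLK1, a mitotic kinase, was 3.18 and 2.56 against 5.61 and 6.26 (−1.03, SE 0.23, limma adjusted p = 0.0639). CENPH, a protein of the inner kinetochore, was 1.58 and 0.69 against 3.10 and 4.90 (−1.80, SE 0.41, limma adjusted p = 0.0650). MCM4 b, at 6.89 and 6.84 against 6.55 and 5.67, and MCM4 a, at 3.26 and 3.48 against 2.55 and 2.82, were the 2 licensing transcripts with both MS-275 samples above both DMSO samples.

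By the test, 5 of the 66 transcripts changed with MS-275 in ST at 3 dpa, beside 2.69% of all tested transcripts. Of these, 3 were higher and 2 lower (2.19% and 0.501% of all). The symbols of all 5 came from lists that used these DMSO samples. They were 4 NASP transcripts, described next, and PLK2 b (AMEXTC_0340000216234), which rose. PLK2 is a kinase known from stress responses and centriole duplication. Despite the latter role its transcripts were counted as name matches here, so they are not among the core transcripts. PLK2 b was 11 and 13.9 with MS-275 and 6.02 and 5.28 with DMSO (log2 difference 1.12, SE 0.19, limma adjusted p = 0.0314). The count was 10 without either ST 0 dpa DMSO replicate, 1 without ST 3 dpa DMSO replicate 1, and 3 without either replicate of ST 3 dpa MS-275, ST 8 dpa MS-275 or ST 8 dpa DMSO. Other cell types moved in the same comparison. All 6 keratinocyte markers were higher with MS-275 (sum 162 to 501 against 14.8 to 15.1, with KRT5 at 0 in DMSO), as were 5 of 6 connective tissue markers (4110 to 5060 against 2080 to 2880). In turn, 6 of 7 muscle markers (2320 to 2720 against 4490 to 14400) and 4 of 7 leukocyte markers (244 to 329 against 346 to 355) were lower. The leukocyte marker MPEG1 was higher. The part of these cell types in the lower cell cycle levels was not tested.

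NASP was the gene whose transcripts differed most from each other. The 5 transcripts are NASP a (AMEXTC_0340000036582), b (AMEXTC_0340000040724), c (AMEXTC_0340000060289), d (AMEXTC_0340000062267) and e (AMEXTC_0340000070057). With DMSO in ST at 3 dpa, NASP a was 32.6 and 26.7 scaled TPM and NASP e 56.2 and 55.5, while NASP b and NASP d were listed at 0 in both samples. With MS-275, NASP b and d had values and NASP a and e lay lower: NASP b was 7.74 and 7.80, NASP d was 16.4 and 12.5, NASP a was 0 and 0.45, and NASP e was 3.71 and 12. All 4 were called by limma, NASP b with an adjusted p of 0.00153, NASP a and NASP d with 0.00936 each and NASP e with 0.0367. For NASP e the log2 difference was −3.04 (SE 0.55). For the others a fold would depend on the amount added to a value of 0, so none is given for NASP b and NASP d. NASP c did not take part in the exchange, at 8.48 and 9.57 against 6.96 and 6.69.

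The exchange between NASP transcripts was also seen between replicates of 1 group. In the epidermis at 3 dpa with DMSO, replicate 1 had 11.9 of NASP a, 0 of NASP b and 23.0 of NASP e, whereas replicate 2 had 0, 10.7 and 0. No treatment separates these 2 samples. In ST at 8 dpa, NASP b was 0 in both DMSO samples and 6.45 and 5.01 with MS-275 (limma adjusted p = 0.00287), while NASP d was 9.02 and 8.62 against 14.8 and 15.9. The sum of the 5 transcripts was steadier. It was 12 and 19.2 in ST at 0 dpa. With DMSO it was 95.7 and 88.8 on day 3 and 41.7 and 37.4 on day 8, and with MS-275 it was 36.3 and 42.4 and then 47.8 and 40.7. The summed level in ST at 3 dpa was lower with MS-275 by limma (log2 difference −1.23, SE 0.24, adjusted p = 0.0442), and at 8 dpa the groups overlapped. The symbols of NASP a, b, d and e came from lists that used the ST DMSO samples of 3 dpa. The test of the sum at 3 dpa is thus not independent of the choice. In the epidermis the sum was 20.1 and 13.4 at 0 dpa, 50.6 and 55.1 at 3 dpa with DMSO and 28.2 and 32.8 with MS-275 (−0.79, SE 0.23, limma adjusted p = 0.154). The epidermis replicates that exchanged transcripts thus had nearly the same sum.

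**Figure D4:**
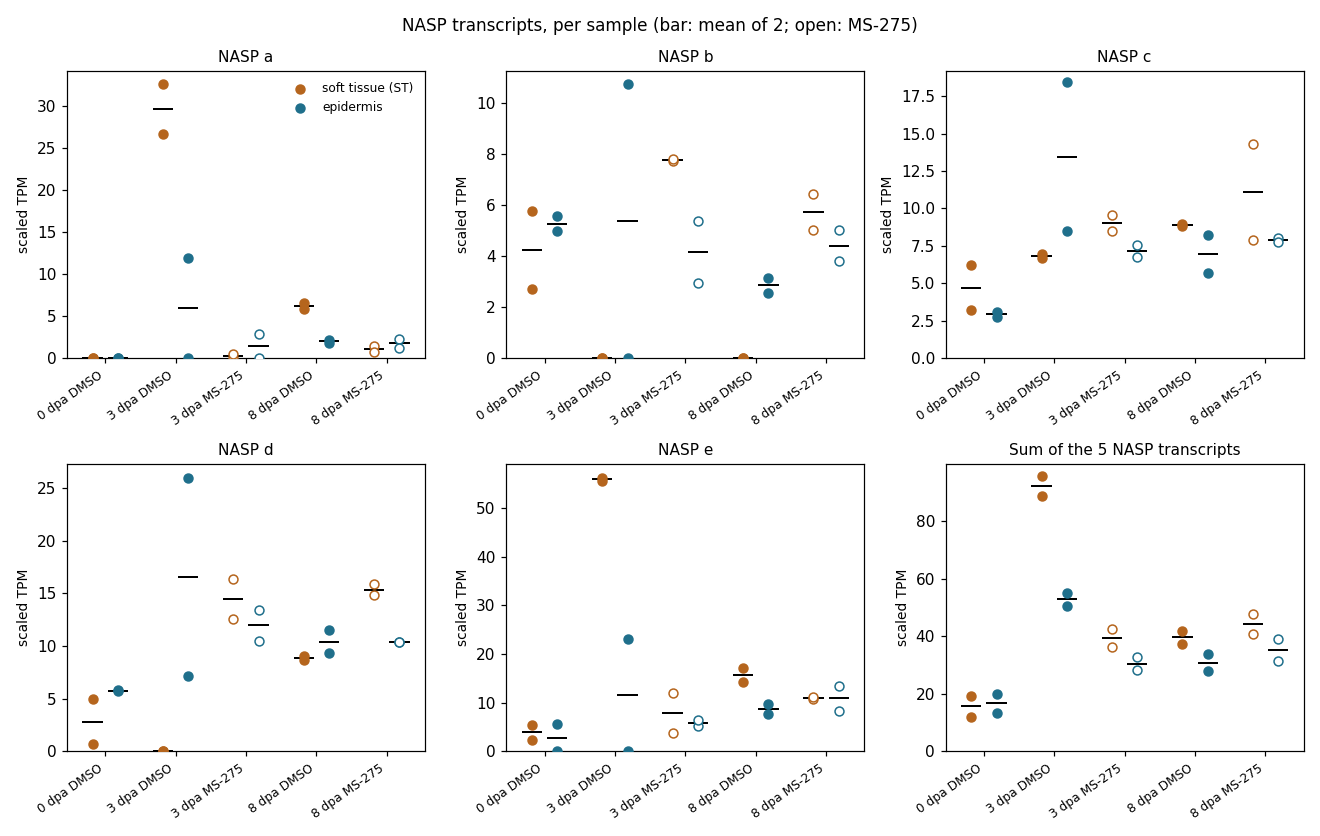
Scaled TPM (y axis) of each NASP transcript and of their sum in every sample by day and treatment (x axis), for ST (brown) and epidermis (blue); filled points are DMSO, open points MS-275, and bars the mean of 2 samples. NASP a and e are high and NASP b and d at 0 in both ST samples of 3 dpa with DMSO, the 2 epidermis samples of that group disagree, and the sum has its highest values, 88.8 and 95.7, in ST at 3 dpa with DMSO.

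In ST at 8 dpa the direction of the difference between MS-275 and DMSO varied between roles and with how the transcripts were chosen. Both MS-275 samples were below both DMSO samples in 13 of 17 mitosis transcripts and in 6 of 8 licensing transcripts (26.1% of all tested transcripts), but in none of 4 RRM2 transcripts, of which 3 were above (28.4% of all). Of the 17 mitosis transcripts, 11 had a symbol from lists that used these DMSO samples, and 10 of those were below, against 3 of the other 6. By the test, 2 of 66 were called (0.524% of all), NASP b higher and KIF26A lower, both with symbols from lists that used these DMSO samples. KIF26A, a kinesin known in mice for a role in the enteric nervous system rather than in mitosis, was 12.4 and 12.5 scaled TPM with DMSO and 4.75 and 4.49 with MS-275 (log2 difference −1.41, SE 0.19, limma adjusted p = 0.0288). In no other group was it above 6.24. TOP2A c was 10.4 and 9.98 with MS-275 against 31.7 and 33.0 with DMSO (−1.66, SE 0.45, limma adjusted p = 0.175), and TOP2A b was 4.43 and 5.60 against 16.2 and 17.1 (−1.72, SE 0.36, limma adjusted p = 0.0952). These groups did not overlap, and neither transcript was called. The symbols of TOP2A b and TOP2A c came from lists that used these DMSO samples, so the gap is not independent of the choice. The error of the fit is shared by all 5 ST groups. The log2 difference of TOP2A c ran from −1.69 to −1.63 when any 1 ST library was left out. The count of calls was 5 without either ST 0 dpa DMSO replicate, 0 without ST 8 dpa DMSO replicate 1 or either ST 8 dpa MS-275 replicate, and 1 without ST 8 dpa DMSO replicate 2. MCM7 b was 13.3 and 13 against 22.9 and 22.9 (−0.80, SE 0.18, limma adjusted p = 0.123). In contrast, PCNA was 71.6 and 82.6 against 51.7 and 46.9 (0.64, SE 0.27, limma adjusted p = 0.362), and CDK1 was 21.3 and 30.5 against 19.2 and 16.6 (0.51, SE 0.28, limma adjusted p = 0.503). Over all 47 core transcripts 29 were negative, with a median of −0.36 (0.01 over all transcripts). Among the 22 core transcripts whose symbol came without the ST samples of 8 dpa, 11 were negative, with a median of −0.01. As deposited, 37 of 47 were negative, with a median of −0.82 where that of all transcripts was −0.33. Beside these values, all 7 muscle markers (4140 to 5220 against 993 to 1220), 6 of 7 leukocyte markers (393 to 411 against 292 to 296) and HBA (2510 to 6490 against 108 to 1410) were higher with MS-275. Lower were 5 of 6 keratinocyte and 5 of 6 connective tissue markers (3750 to 4760 against 5460 to 5660). The other keratinocyte marker, KRT5, was higher, and the other leukocyte marker, CSF1R, was lower. Their part in these differences was not tested.

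In the epidermis at 3 dpa no transcript was called with MS-275 by limma (0.482% of all were), and 8 had an unadjusted p under 0.05 (16.0% of all). Without epidermis 3 dpa DMSO replicate 2 the count was 1. The roles differed in direction. All 8 licensing and 6 of 7 polymerase and clamp transcripts had a negative difference, with medians of −0.57 and −0.32, and 15 of 17 mitosis transcripts a positive one, with a median of 0.42. Both MS-275 samples were above both DMSO samples in 10 of the 17 (25.9% of all). With symbols from lists that used these DMSO samples, 4 of 7 licensing and 3 of 6 polymerase and clamp transcripts had both below (19.5% of all). The rest of these roles was only 1 licensing and 1 polymerase and clamp transcript. Neither showed such a gap, and they are too few for a comparison of shares. The licensing sum was 40.5 and 48.0 with MS-275 against 50.1 and 98.6, and the mitosis sum 107.7 and 108.2 against 76.1 and 104.5. The first difference thus lay mostly with DMSO replicate 2, and the second mostly with DMSO replicate 1. CDC20 was 14.5 and 15.1 scaled TPM with MS-275 against 7.81 and 9.96 (log2 difference 0.74, SE 0.19, limma adjusted p = 0.122). PCNA was 89.4 and 91.1 against 108 and 165 (−0.56, SE 0.26, limma adjusted p = 0.337). CENPH, which with CDCA8 made up the 2 negative mitosis transcripts, was 1.25 and 1.89 against 3.92 and 4.91 (−1.46, SE 0.26, limma adjusted p = 0.0620). CDC20 and CENPH did not overlap between the groups. Of 47 core transcripts, 27 were negative. Without epidermis 3 dpa DMSO replicate 1 there were 33, and without replicate 2 there were 17, with medians of −0.58 and 0.18. Of the 16 core transcripts whose symbol came without the epidermis samples of 3 dpa, 5 were negative, with a median of 0.41. Of the leukocyte markers, 6 of 7 were higher with MS-275 (197 to 256 against 133 to 144), as were 4 of 6 keratinocyte markers (1340 to 1600 against 1190 to 1350) and 3 of 7 muscle markers (51.7 to 93.8 against 8.76 to 50.6). HBA was lower (3490 to 3730 against 5800 to 13400), as was 1 of 6 connective tissue markers. The part of these markers was not tested.

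In the epidermis at 8 dpa, 4 of 66 transcripts were called with MS-275, a share close to that of all transcripts (4.89%). Of these, 3 were the TOP2A transcripts. They belong to 1 gene, between whose transcripts RSEM divides reads, so they are not separate results. The symbols of TOP2A a, TOP2A b and the fourth, MCMBP, came from lists that used these DMSO samples. TOP2A c was 5.29 and 5.36 scaled TPM with MS-275 against 16.0 and 18.9 with DMSO (log2 difference −1.69, SE 0.38, limma adjusted p = 0.0462), and its symbol came from the ST lists only. Those lists used ST samples of 8 dpa with DMSO, and both tissues came from the same pieces of limb. The call of TOP2A c is thus no independent one either. TOP2A b was 2.15 and 2.09 against 8.50 and 8.04 (−1.92, SE 0.38, limma adjusted p = 0.0344). TOP2A a was listed at 0 in both MS-275 samples and at 0.27 and 0.46 with DMSO (limma adjusted p = 0.0102). The MS-275 levels of TOP2A b and c lay between the 2 samples of 0 dpa, at 2.45 and 1.0 for TOP2A b and 6.32 and 3.58 for TOP2A c. The sum of the 3 was 7.44 and 7.45 with MS-275 against 24.8 and 27.4 (−1.79, SE 0.36, limma adjusted p = 0.0343). MCMBP, which binds the MCM helicase and helps to load or unload it, was higher at 2.12 and 2.24 against 0.43 and 0.56 (1.94, SE 0.42, limma adjusted p = 0.0416). The other licensing transcripts lay lower: 7 of 8 were below DMSO in both samples (26% of all), among them MCM7 b at 9.99 and 9.84 against 17.4 and 23.0 (−1.0, SE 0.35, limma adjusted p = 0.145). Of the mitosis transcripts, 11 of 17 were below DMSO in both samples and 3 above (29.1% of all).

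CDKN1B in the epidermis at 8 dpa was 1.04 and 1.41 with MS-275 against 0.53 and 0.44 (1.18, SE 0.33, limma adjusted p = 0.0900), and PCNA, at 48.7 and 51.3 against 43.5 and 47.6, differed by 0.14 (SE 0.26, limma adjusted p = 0.810). The CDKN1B groups stood apart, while those of PCNA nearly touched. Over the core transcripts of the epidermis at 8 dpa, 26 of 47 were negative with a median of −0.17, and of the 32 whose symbol came without the epidermis samples of 8 dpa, 18 were, with a median of −0.20. Without the factors, as deposited, 43 of 47 were negative with a median of −0.87, while the median of all transcripts was −0.48. The TOP2A transcripts were lower under both scalings. The positive differences of PCNA, RRM2 c and CDK1 turned negative, and the cause was not tested. The 4 calls became 1 without either epidermis 3 dpa MS-275 replicate or epidermis 8 dpa DMSO replicate 1, and 0 without epidermis 8 dpa DMSO replicate 2 or either epidermis 8 dpa MS-275 replicate. All 7 muscle markers (sum 87.8 to 175 against 0.373 to 0.525, where ATP2A1, MYH4, MYL1 and TNNC2 had a value of 0) and the red blood cell marker HBA (12300 to 13300 against 166 to 331) were higher with MS-275 here. Of 6 keratinocyte markers 1 was higher and 1 lower. Their part in these differences was not tested.

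The change of the MS-275 effect from 3 to 8 dpa was tested as an interaction. In ST no transcript was called by limma (0.184% of all were), with 19 at an unadjusted p under 0.05 (13.2% of all), and 2 were called without either ST 0 dpa DMSO replicate. In the epidermis 2 were called (1.19% of all), CENPH and TOP2A a. The symbols of both came from the list of 8 against 3 dpa with DMSO in the epidermis, whose samples enter this difference, so the calls are not independent of the choice. CENPH was 1.91 and 2.29 with MS-275 against 1.23 and 1.41 with DMSO at 8 dpa (change of the log2 difference 2.08, SE 0.37, limma adjusted p = 0.0478). TOP2A a was at or under 0.0545 in both groups at 3 dpa, so its call (limma adjusted p = 0.0351) rests on the 2 DMSO samples of 8 dpa. Both were lost without any 1 of the 4 MS-275 libraries of the epidermis, without epidermis 3 dpa DMSO replicate 1 or without either epidermis 8 dpa DMSO replicate. Between tissues, the MS-275 effect differed for NASP d at 3 dpa (limma adjusted p = 0.00968; 0.385% of all were called) and for no transcript at 8 dpa (0.0166% of all), with 5 at an unadjusted p under 0.05 there (6.72% of all). The symbol of NASP d came from the ST list of 8 against 3 dpa with DMSO, which used the ST samples compared here. In the epidermis at 3 dpa NASP d was 10.5 and 13.4 with MS-275 and 7.12 and 26 with DMSO. The count at 3 dpa became 2 without either ST 0 dpa DMSO, ST 3 dpa MS-275 or epidermis 3 dpa DMSO replicate, and that at 8 dpa became 1 without either epidermis 3 dpa DMSO replicate.

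The lists behind the symbols used DMSO samples of 1 or both tissues, so comparisons between tissues with DMSO are not independent of the choice. Across tissues, the calls at 0 dpa were name matches. At 0 dpa none of 47 core transcripts was called between the epidermis and ST by limma, with 6 at an unadjusted p under 0.05, whereas 8 of the 66 were, all of them name matches (18.9% of all transcripts were called, and 29.8% had an unadjusted p under 0.05). PLK2 a and PLK2 b lay in opposite tissues. PLK2 a (AMEXTC_0340000009530) had 20.8 and 39.6 scaled TPM in ST at 0 dpa, against 0.52 and 0.51 in the epidermis (log2 difference −5.55, SE 0.34, limma adjusted p = 6.01e-07), and PLK2 b had 17.2 and 16.5 in ST, against 53.9 and 43.8 in the epidermis (1.52, SE 0.21, limma adjusted p = 0.000192). Both differences held in all 5 tissue comparisons. At 3 dpa with DMSO, PLK2 a was 7.59 and 3.79 in ST and PLK2 b 32.6 and 22.7 in the epidermis, in each case below both samples of 0 dpa. CDC42EP2 b, which binds CDC42 and acts on the actin skeleton, was higher in the epidermis in all 5 comparisons, and CDK17, a kinase of neurons and other differentiated cells, was higher in ST in all 5.

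CDC42SE1, another CDC42 binding protein, was 58.5 and 44.7 in the epidermis and 19.8 and 17.4 in ST at 3 dpa, and in ST at 0 dpa its replicates were 5.78 and 26. AURKAIP1 at 0 dpa had 35.5 and 41.9 in ST, against 12.7 and 9.92 in the epidermis. With DMSO, 13 of the 66 were called on each day (13.9% of all at 3 dpa and 13.3% at 8 dpa). Under MS-275, 9 were called at 3 dpa (11.8% of all) and 6 on the later day (9.28%). The 4 core transcripts at 3 dpa with DMSO were NASP d, higher in the epidermis, and KIF20A, CDCA9 and TOP2A b, higher in ST. KIF20A, a motor of late mitosis, was 0.90 and 2.14 in the epidermis and 3.90 and 4.82 in ST (−1.57, SE 0.36, limma adjusted p = 0.00943). At 8 dpa with DMSO, KIF26A was 2.35 and 2.34 in the epidermis and 12.4 and 12.5 in ST (−2.36, SE 0.26, limma adjusted p = 7.54e-05). With MS-275 at 3 dpa, AURKB b and CDC20 were the 2 core transcripts called, both higher in the epidermis. The 13 calls of 3 dpa became 8 without ST 3 dpa DMSO replicate 2, and those of 8 dpa became 6 without ST 8 dpa DMSO replicate 1 and 7 without ST 8 dpa DMSO replicate 2 or either epidermis 8 dpa DMSO replicate. With MS-275, the 9 calls became 14 without either ST 0 dpa DMSO replicate, 4 without epidermis 3 dpa MS-275 replicate 1, and 5 without epidermis 3 dpa MS-275 replicate 2 or ST 3 dpa MS-275 replicate 1, and the 6 calls became 3 without epidermis 8 dpa MS-275 replicate 2 or either ST 8 dpa MS-275 replicate.

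Other genes of proliferation were compared in the same way. Of 61 genes listed by known role, 45 had a transcript with a symbol, again from the lists of changed transcripts. They are therefore no independent sample, and they were not split by the samples that those lists used. In ST at 3 dpa with MS-275, 42 of the 45 had a negative log2 difference from DMSO, with a median of −0.52, and 1 was called (2.69% of all transcripts were), CKS2, a small subunit of CDK complexes, which fell by 1.01 (SE 0.17, limma adjusted p = 0.0294). At 8 dpa in ST 34 of 45 were negative, with a median of −0.32. In the epidermis at 3 dpa 24 of 45 were negative, with a median of −0.04 and 1 call (0.482% of all), DUT, which keeps uracil out of DNA and rose by 1.73 (SE 0.27, limma adjusted p = 0.0455). At 8 dpa in the epidermis 28 of 45 were negative, with a median of −0.16. There, 4 were called (4.89% of all): CKS1B and GMNN rose, and DUT and TACC3, a spindle protein, fell. The 3 most abundant of these genes were HMGB2, STMN1 and KPNA2. KPNA2, which imports proteins into the nucleus, was 10.5 and 12.4 scaled TPM in ST at 0 dpa, 48.6 and 66.3 at 3 dpa and 94.3 and 91.4 at 8 dpa with DMSO, and 49.2 and 39.8 and 67.6 and 76.5 on these days with MS-275. HMGB2, a chromatin protein of dividing cells, was 614 and 670 in ST at 8 dpa with DMSO and 433 and 409 with MS-275, and STMN1, which destabilises microtubules, was 122 and 110 against 76.0 and 96.1. Both groups stood apart for HMGB2 and STMN1 at 8 dpa, and neither was called by limma (adjusted p = 0.356 and 0.505).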

How the data were processed

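RNA sequencing of 20 samples gave 1 table of transcript levels. The authors used cutadapt for trimming, Bowtie2 for alignment to a transcriptome of the axolotl and RSEM for TPM. These deposited TPM are not scaled from sample to sample. TPM were divided by median-ratio factors over the 39272 transcripts above 0 in all 20 samples, and log2(scaled TPM + 0.1) was fitted with limma 3.58.1 (R 4.3.3), with the trend, per tissue (5 groups) or over both tissues. The filter kept a transcript if 5 or more of a tissue's 10 samples had any TPM, which left 87546 in ST and 88139 in the epidermis, and 96627 over both tissues. Tests were two-sided. A count model was not used, since no counts were at hand, and p-values measure the spread between 2 pools per group. With 2 samples a group, the smallest p of an exact permutation test is 0.333.

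Symbols came from shortened copies of the study's lists, which show 6830 transcripts, 4778 of them with a symbol, so genes without one were not analysed here. The members and gene lists were chosen with earlier results of these data known. Sample values are given for all PCNA and NASP transcripts, the 4 most abundant genes of a role (5 for mitosis), genes with at least 3 transcripts and every transcript called in an MS-275 comparison. RRM2 a, RRM2 b, PLK1, CENPH at 3 dpa, KIF20A and the tissue examples were named after their values were seen. Alternatives were no scaling, factors within a tissue, a pseudocount of 1, 2 other filters, no trend, a replicate block, all 20 samples in 1 model, sums over a gene's transcripts, and leaving out each library. The paper and the labels give different library kits (TruSeq or SureSelect).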

Additional observations from a re-analysis of the deposited data

Results flagged for a closer look

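The MS-275 effect differed between tissues or days, by the interaction test in limma, for 3 transcripts. Their symbols came from lists that compared 8 with 3 dpa in the DMSO samples that enter these tests (for TOP2A a also 8 with 0 dpa), so the choice of the transcripts used these values. For NASP d at 3 dpa the effect in the epidermis minus that in ST was −7.37 on the log2 scale. This value depends on the pseudocount and is no bound, since both ST samples with DMSO were listed at 0. For CENPH in the epidermis the effect rose by 2.08 from 3 to 8 dpa, with 1.25 and 1.89 against 3.92 and 4.91 scaled TPM at 3 dpa and 1.91 and 2.29 against 1.23 and 1.41 at 8 dpa. For TOP2A a in the epidermis it changed by −2.67, where both MS-275 samples of 8 dpa were listed at 0 and no sample of the epidermis exceeded 0.46.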

How the results depend on the processing

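The counts of called transcripts moved with the processing. As deposited, without factors, ST MS-275 against DMSO at 8 dpa gave 6 calls and epidermis 10, the changes of the effect 3 (ST) and 6 (epidermis), the transcripts with a symbol from the other tissue 13 and 15 in ST (3 and 8 dpa against 0 dpa) and 1 in the epidermis (8 against 3 dpa), epidermis against ST 20 (0 dpa), 5 (3 dpa, MS-275) and 11 (8 dpa, MS-275), and the tissue difference at 3 dpa 2. With a pseudocount of 1 the counts were 4 (ST, 8 dpa), 1 and 1 (changes in ST and epidermis) and 10 (epidermis against ST, MS-275, 8 dpa). With a mean TPM of at least 1 they were 9 and 5 (ST, 3 and 8 dpa), 1 (epidermis, 3 dpa), 2 and 5 (changes), 4 (other tissue, epidermis, 3 dpa), 12 (epidermis against ST, MS-275, 8 dpa) and 2 (tissue difference, 3 dpa). With any TPM above 0 they were 2 (epidermis, 8 dpa), 0 (other tissue, epidermis, 8 dpa) and 0 (change in the epidermis). Without the trend they were 3 and 1 (ST, 3 and 8 dpa), 4 (other tissue, ST, 3 dpa), 0 (other tissue, epidermis, 8 dpa) and 0 (change in the epidermis). With all 20 samples in 1 model they were 5 (ST, 8 dpa), 9 (epidermis, 8 dpa), 12 and 14 (other tissue, ST), 4 and 5 (other tissue, epidermis, 3 and 8 dpa) and 2 (change in ST). Within a tissue, replicate numbers did not pair the samples (r from −0.096 to 0.126). Pairing between epidermis and ST samples was not checked. A replicate block gave 3 and 1 (ST, 3 and 8 dpa), 1 (epidermis, 8 dpa), 0 (other tissue, epidermis, 8 dpa) and 0 (change in the epidermis), and the other counts stayed within 1.5 times. Leaving out 1 library gave 1 to 10 (ST, 3 dpa), 0 to 5 (ST, 8 dpa), 0 to 1 (epidermis, 3 dpa), 0 to 6 (epidermis, 8 dpa), 0 to 2 and 0 to 3 (changes), 2 to 9 and 2 to 11 (other tissue, ST, 3 and 8 dpa), 0 to 3, 0 to 4 and 0 to 1 (other tissue, epidermis), 6 to 11, 8 to 15 and 6 to 16 (epidermis against ST, DMSO, 0, 3 and 8 dpa), 4 to 14 and 3 to 9 (epidermis against ST, MS-275) and 1 to 2 and 0 to 1 (tissue differences). Among the single named transcripts followed through the alternatives, the direction turned for few. Over the 47 core transcripts it turned for more. In the epidermis at 8 dpa the negative differences went from 26 to 43 as deposited. In the epidermis at 3 dpa they went from 27 to 17 without 3 dpa DMSO replicate 2. As deposited, the epidermis difference at 8 dpa was −0.19 for CDK1, −0.58 for PCNA and −0.65 for RRM2 c. Leaving out 1 library gave −0.025 to 0.29 for CDK1 (epidermis, 3 dpa; lowest without 3 dpa DMSO replicate 1) and, for RRM2 c, −0.69 to 0.31 at 3 dpa (highest without 3 dpa DMSO replicate 2) and −0.14 to 0.27 at 8 dpa (lowest without 8 dpa MS-275 replicate 2). The cause of these moves was not tested. Depth was not analysed here, and with 2 samples a group a missed call does not show that levels were equal.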
